A study of Mus musculus with 53 samples.

Results

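The transcripts described here belong to 37 mouse genes of glycolysis and of the response to low oxygen. They were listed by symbol and role, with earlier results of these data known. All 37 were found among the 43432 genes listed in each of the 2 deposited expression tables. They comprise 2 membrane transporters of glucose and lactate, 16 glycolytic enzymes, 3 regulators of glycolytic flux, 15 other targets of the hypoxia-inducible factor (HIF) and Hif1a, which encodes the oxygen-regulated subunit of that factor. Levels are given as the authors' FPKM or RPKM, which scale reads (fragments for FPKM) to transcript length and library size, so that genes of different length can be set beside each other within a table.

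The cells were mouse embryonic fibroblasts (MEF), either labelled ANP32E-KO (KO here), for a knockout of the histone chaperone that removes the variant histone H2A.Z from chromatin, or wild type (WT). The knockout allele, the number of clones or embryos behind the cultures, and the dose and duration of the treatments are not stated in the labels. In the first experiment cultures of both genotypes were given decitabine (DAC), which blocks DNA methyltransferases, or the solvent DMSO, with 3 KO DAC, 2 KO DMSO, 3 WT DAC and 2 WT DMSO libraries. In the second both genotypes were given siRNA that targets H2A.Z, or NT control siRNA, and KO H2AZ siRNA, KO NT, WT H2AZ siRNA and WT NT cells gave 3 libraries each. Most titles call the replicates biological, those of the KO H2AZ siRNA group carry only a number, and nothing says that they were separate cultures, so the p-values measure only the spread between these libraries. The 31 CUT&Tag samples of the series were not analysed here.

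Glycolysis breaks glucose down to pyruvate in a chain of enzymes that begins with hexokinase and ends with pyruvate kinase, and lactate dehydrogenase then turns pyruvate into lactate, which leaves the cell through a monocarboxylate transporter. When oxygen is plentiful, prolyl hydroxylases of the Egln family mark the HIF alpha subunit for destruction. When oxygen is scarce the subunit persists, pairs with Arnt, binds the short hypoxia response element and raises the transcription of most glycolytic genes as well as of genes for blood vessel growth, mitophagy, pH control and collagen modification. Glycolytic genes also answer to other regulators, such as Myc, and fibroblasts in culture run glycolysis at a high rate in ample oxygen.

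Library totals recovered from the values ranged from 27503472 to 36910532 reads in the DAC table and from 31928320 to 47172427 reads in the siRNA table. Anp32e averaged 5.09 ± 0.313 FPKM in KO DMSO libraries and 14.5 ± 0.0299 FPKM in WT DMSO libraries (SD, n = 2 each), and in each of the 4 conditions its transcript was lower in KO cells, with limma log2 differences of -1.74 to -1.07. H2afz, the main H2A.Z gene, averaged 27.9 RPKM in KO H2AZ siRNA and 194 RPKM in KO NT libraries, and 17.2 RPKM in WT H2AZ siRNA and 202 RPKM in WT NT libraries. All 10 fibroblast markers were present, summing to 1820 to 2020 FPKM in KO DAC, 1930 to 1970 FPKM in KO DMSO, 2240 to 2410 FPKM in WT DAC and 3430 to 3570 FPKM in WT DMSO libraries. In the siRNA table they summed to 2250 to 2500 RPKM in KO and to 1670 to 1770 RPKM in WT libraries. A list of 10 markers of mesothelial cells, the lining cells of body cavities, summed to 112 to 130 FPKM in KO DAC, 946 to 977 FPKM in KO DMSO, 42.8 to 57.2 FPKM in WT DAC and 10.1 to 12.1 FPKM in WT DMSO libraries, where Lrrn4 and Gpm6a were at 0. The same list summed to 152 to 162 RPKM in KO H2AZ siRNA, 169 to 191 RPKM in KO NT, 22.9 to 23.2 RPKM in WT H2AZ siRNA and 22.2 to 23.5 RPKM in WT NT libraries, and the mesothelial regulator Wt1 was at 0 in both WT groups. The Y-linked gene Ddx3y was at 3.02 to 6.73 in all KO libraries and at most at 0.0720 in any WT library, so the sex of the cultures and their genotype cannot be told apart. Ddx3y, Kdm5d, Eif2s3y, Uty and Xist together summed to 47.2 to 65.9 FPKM in KO DAC and 10.7 to 12.2 FPKM in KO DMSO libraries. The sum was 136 to 210 FPKM in WT DAC and 170 to 181 FPKM in WT DMSO libraries. It was 9.25 to 16.6 RPKM in KO NT and 4.23 to 6.33 RPKM in WT NT libraries, the other way round between the genotypes. Libraries WT DAC 3 and KO DAC 1 stood apart from their groups in the DAC table, as did WT NT 1 and KO NT 1 in the siRNA table. The deviations of WT DAC 3 and KO DAC 1 from their group means correlated at 0.346, and the reason was not tested. In these bulk libraries, fewer cells of a type and less RNA per cell cannot be told apart.

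Promoter sequences are shown for 5 members whose RNA behaved differently under decitabine, as described further on. Of the 37 genes, 35 had a RefSeq promoter window of 300 bases (250 before and 50 after the start), all but Bnip3l and Ndrg1. The core of the hypoxia response element was searched as ACGTG or GCGTG on the shown strand and as CACGT or CACGC for the other strand, so that the palindrome CACGTG counts once on each. Counting the first listed window of each gene, it was found in 27 of the 35 members (77.1%) and in 11836 of 27025 genes (43.8%). Over every listed window it was found in 41 of 53 for members (77.4%) and in 14380 of 32851 for all genes (43.8%). By role it was found in 10 of 16 glycolytic enzymes (62.5%) and in 11 of 13 other HIF targets (84.6%). The 250 bases before the start of 5 genes follow, 5′ to 3′ in RefSeq's GRCm38.p6 (mm10) sequence, with matches in capitals. They are Ldha at chr7:46845554-46845803 (plus strand, 5 matches), Pgk1 at chrX:106186850-106187099 (plus strand, 2 matches), Bnip3 at chr7:138909507-138909756 (minus strand, 5 matches), Egln3 at chr12:54203875-54204124 (minus strand, 1 match) and Mxi1 at chr19:53310256-53310505 (plus strand, no match).
Ldha: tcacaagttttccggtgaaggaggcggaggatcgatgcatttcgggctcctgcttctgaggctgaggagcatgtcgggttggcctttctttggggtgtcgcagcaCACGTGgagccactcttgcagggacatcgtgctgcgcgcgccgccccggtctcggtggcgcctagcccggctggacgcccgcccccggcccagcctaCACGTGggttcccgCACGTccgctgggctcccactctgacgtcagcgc
Pgk1: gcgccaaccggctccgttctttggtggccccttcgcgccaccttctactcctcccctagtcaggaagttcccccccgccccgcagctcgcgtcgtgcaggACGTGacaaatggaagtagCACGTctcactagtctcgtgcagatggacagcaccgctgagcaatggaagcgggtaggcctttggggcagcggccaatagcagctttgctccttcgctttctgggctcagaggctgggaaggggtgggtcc
Bnip3: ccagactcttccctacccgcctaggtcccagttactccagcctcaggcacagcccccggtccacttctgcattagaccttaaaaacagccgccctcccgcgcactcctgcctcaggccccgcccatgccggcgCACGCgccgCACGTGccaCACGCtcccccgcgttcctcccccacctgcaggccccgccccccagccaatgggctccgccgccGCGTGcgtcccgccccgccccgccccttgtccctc
Egln3: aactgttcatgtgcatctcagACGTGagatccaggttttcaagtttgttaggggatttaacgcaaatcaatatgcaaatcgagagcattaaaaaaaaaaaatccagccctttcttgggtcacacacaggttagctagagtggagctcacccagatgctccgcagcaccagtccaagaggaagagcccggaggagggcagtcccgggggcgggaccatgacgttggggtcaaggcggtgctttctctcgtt
Mxi1: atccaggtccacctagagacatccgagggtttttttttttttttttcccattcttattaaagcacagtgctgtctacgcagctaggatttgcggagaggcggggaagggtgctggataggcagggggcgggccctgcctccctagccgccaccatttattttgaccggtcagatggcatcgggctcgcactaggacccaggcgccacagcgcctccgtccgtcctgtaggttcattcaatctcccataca
The palindrome stands at 2 places before Ldha and at 1 before Bnip3, and the match before Egln3 begins 229 bases before the start. A match is a stretch of letters and not evidence of binding, and the lack of one before Mxi1 concerns these bases alone. RefSeq lists 2 windows for Ldha and 3 for Mxi1, of which only the first listed is shown.

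KO cells in DMSO carried more RNA of most steps of glycolysis than WT cells in DMSO, with exceptions among the isoenzymes. Of the 16 glycolytic enzymes tested, 11 were higher and 3 lower in KO, with a median log2 difference of 0.73 beside -0.04 over all genes tested. Aldoc is among the 11, although it passed the filter on low values only through the KO DMSO libraries, and without it 10 of 15 enzymes were higher and 3 lower, with a median of 0.71. Over the 36 members tested, 27 were higher and 4 lower (26 and 4 of 35 without Aldoc), while 42.4% of all 16434 genes were called in this comparison, 19.6% higher and 22.9% lower. Calls required an adjusted p (Benjamini-Hochberg) under 0.05 in limma, fitted across all genes of a table on log2(value + 1), a scale that understates the change of low genes. Ankrd37, an ankyrin repeat gene, had 9 to 47 reads per library and was not tested in this table. The KO and WT DMSO libraries did not overlap for 33 of the 36 members, nor for 74.9% of all genes. The mesothelial marker sum was also far higher in KO DMSO than in WT DMSO libraries, and 7 of 10 fibroblast markers were lower and 1 higher in KO. Their part in these differences was not tested.

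**Figure D1:**
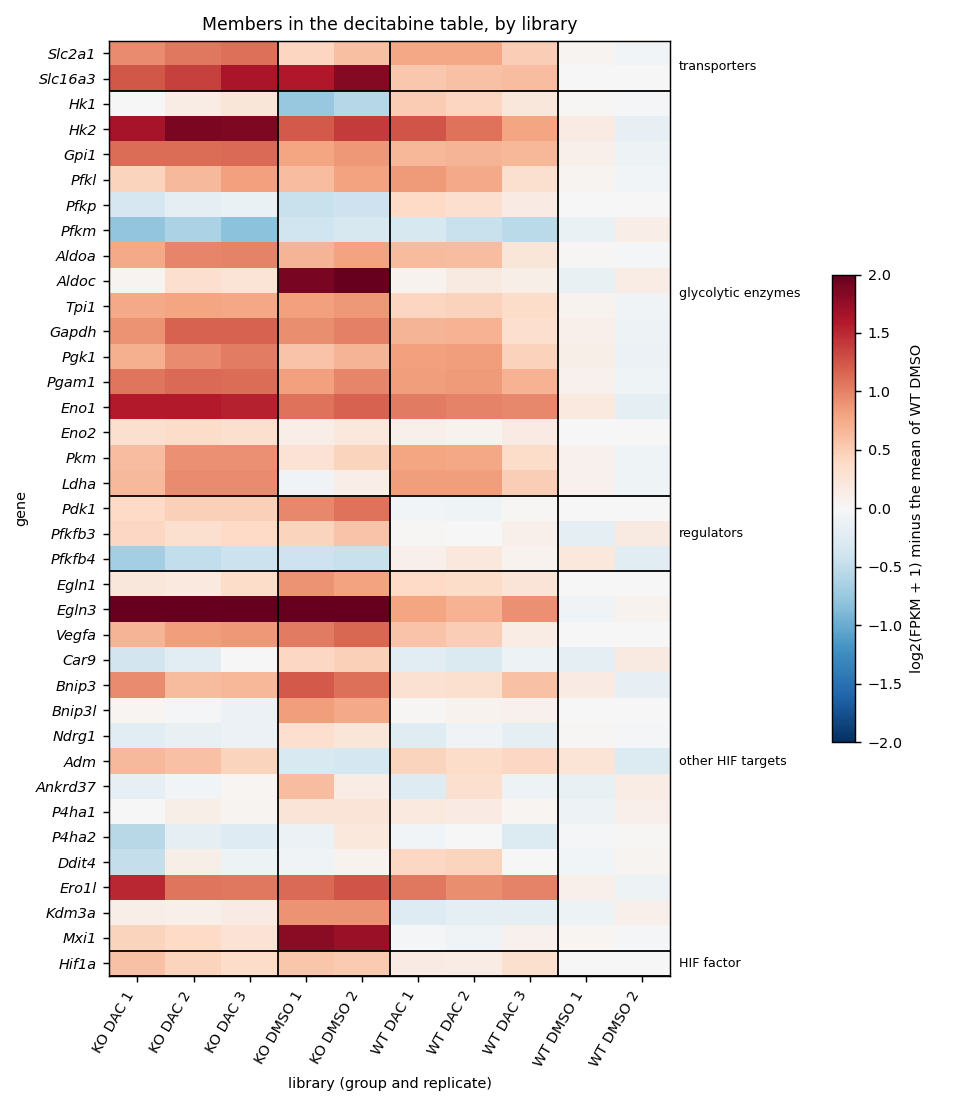
Level of each gene in each library of the DAC table, as log2(FPKM + 1) minus the mean of the WT DMSO libraries, with genes down the page by role and libraries across in the order KO DAC, KO DMSO, WT DAC and WT DMSO. Red is above and blue below the WT DMSO mean. Egln3 is red in both KO groups, and Mxi1 and Aldoc are red mainly in the 2 KO DMSO libraries.

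Hexokinase 2 (Hk2, on mm10 chromosome 6 from 82725025 to 82774454), the inducible enzyme that traps glucose in the cell, stood at 7.80, 9.39 and 9.23 FPKM in KO DAC, 5.56 and 6.43 FPKM in KO DMSO, 5.70, 4.98 and 3.84 FPKM in WT DAC and 2.15 and 1.5 FPKM in WT DMSO libraries. No library of WT DMSO reached any library of the other 3 groups. Hk2 was 1.31 ± 0.17 log2 units (SE) higher in KO than in WT under DMSO (limma adjusted p = 0.00033). Hexokinase 1 (Hk1), the constitutive form, had 7.28 and 8.43 FPKM in KO DMSO and 13.2 and 12.7 FPKM in WT DMSO libraries, and was lower in KO by a log2 difference of -0.66 ± 0.11 (adjusted p = 0.0018). The genotypes thus differed in opposite directions for the 2 hexokinases.

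Enolase 1 (Eno1), which makes phosphoenolpyruvate, had 156 and 166 FPKM in KO DMSO and 83.0 and 63.6 FPKM in WT DMSO libraries, a log2 difference of 1.14 ± 0.11 (adjusted p = 4.4e-05). Gapdh, the dehydrogenase often used as a reference transcript, had 536 and 567 FPKM in KO DMSO against 302 and 261 FPKM in WT DMSO libraries, a log2 difference of 0.97 ± 0.15 (adjusted p = 0.00092). Gpi1, Tpi1 and Pgam1, the isomerases and the mutase of the middle of the pathway, were higher in KO by log2 differences of 0.82, 0.85 and 0.89. Aldoa, the widespread aldolase, was higher by 0.74 ± 0.14 (adjusted p = 0.0024). The last enzymes of the chain were not called. Pkm, pyruvate kinase, had 229 and 253 FPKM in KO DMSO and 199 and 175 FPKM in WT DMSO libraries, with a log2 difference of 0.37 ± 0.16 that missed the threshold (adjusted p = 0.102). Ldha, lactate dehydrogenase A (chromosome 7 from 46842274 to 46855627), had 45.2 and 52.0 FPKM in KO DMSO and 50.5 and 44.8 FPKM in WT DMSO libraries, which overlapped, with a log2 difference of 0.03 ± 0.15 (adjusted p = 0.9).

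Aldoc (chromosome 11 from 78323073 to 78327781), the aldolase best known from brain, had 0.299, 0.588 and 0.506 FPKM in KO DAC, 3.69 and 4.86 FPKM in KO DMSO, 0.313, 0.416 and 0.364 FPKM in WT DAC and 0.130 and 0.390 FPKM in WT DMSO libraries. It was above 1 FPKM in the KO DMSO libraries alone, so this gene passed the filter on low values through that group alone. Its log2 difference between KO and WT in DMSO, 2.06, is therefore given as a description, with no test.

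The calls of Pfkl, the liver-type phosphofructokinase (0.71), and of Pgk1, phosphoglycerate kinase (0.62), ended without KO DMSO library 2 (log2 differences of 0.62 and 0.56) or without WT DMSO library 2 (0.66 and 0.50). Eno2, the neuronal enolase (0.17), lost its call without any of 8 libraries (0.14 to 0.21). The platelet-type and muscle-type phosphofructokinases were lower in KO. The call of Pfkp (-0.43) ended without KO DMSO library 1 (-0.41), and that of Pfkm (-0.35) without KO DMSO library 1 (-0.31), KO DMSO library 2 (-0.39) or WT DMSO library 2 (-0.22). Part of Pfkp overlaps Pitrm1, part of Pfkm overlaps Senp1 and part of Hk1 overlaps Hk1os in RefSeq, and whether the authors' counting used strand is not given.

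Other HIF targets were higher in KO under DMSO in 11 of 14 cases and lower in none, with a median log2 difference of 0.82. Over all genes 19.6% were higher and 22.9% lower in this comparison, with a median of -0.04. Egln3 (chromosome 12 from 54178981 to 54203874), a prolyl hydroxylase that is itself induced by HIF, had 6.14, 5.96 and 5.46 FPKM in KO DAC, 8.84 and 9.23 FPKM in KO DMSO, 1.56, 1.40 and 1.79 FPKM in WT DAC and 0.416 and 0.549 FPKM in WT DMSO libraries. The 4 groups did not overlap, and the log2 difference in DMSO was 2.76 ± 0.1 (adjusted p = 1.7e-07). Mxi1 (chromosome 19 from 53310128 to 53373293), an antagonist of Myc, had 5.74, 5.48 and 5.02 FPKM in KO DAC, 16.2 and 15.4 FPKM in KO DMSO, 3.87, 3.69 and 4.23 FPKM in WT DAC and 4.09 and 3.77 FPKM in WT DMSO libraries. The 2 KO DMSO libraries stood far above all others, with a log2 difference from WT DMSO of 1.77 ± 0.08 (adjusted p = 7.9e-07).

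Ero1l, an oxidase of the endoplasmic reticulum, was higher in KO DMSO by 1.19 ± 0.15, Bnip3, a mitophagy receptor, by 1.16 ± 0.15, and Vegfa, the growth factor of blood vessels, by 1.1 ± 0.13 log2 units (adjusted p = 0.00028, 0.00031 and 0.00019). Kdm3a, a histone demethylase, was higher by 0.90, Egln1, the constitutive prolyl hydroxylase, by 0.85, and Bnip3l, a second mitophagy receptor, by 0.80. Smaller differences were less stable. The call of Car9, a carbonic anhydrase of the cell surface (0.45), ended without any of 6 libraries (0.26 to 0.47). That of Ndrg1, a stress-response gene (0.29), ended without KO DMSO library 1 or WT DMSO library 2 (0.25 and 0.26), and that of P4ha1, a collagen prolyl hydroxylase subunit (0.26), without either KO DMSO library or WT DMSO library 1 (0.16 to 0.26). Adm, the vasodilator peptide adrenomedullin, at 1.30 and 1.23 FPKM in KO DMSO and 2.42 and 1.35 FPKM in WT DMSO libraries, was not called, and neither were Ddit4, an inhibitor of mTOR signalling, and P4ha2, the sister subunit of P4ha1. Bnip3 has a pseudogene, Gm18258, within its span, and how multi-mapping reads were counted is not stated for any of these genes.

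The lactate exporter Slc16a3 had 3.48, 3.85 and 4.84 FPKM in KO DAC, 4.69 and 5.69 FPKM in KO DMSO, 1.73, 1.83 and 1.90 FPKM in WT DAC and 0.901 and 0.866 FPKM in WT DMSO libraries. Both KO groups stood above both WT groups, and the log2 difference in DMSO was 1.71 ± 0.13 (adjusted p = 1.4e-05), although part of the gene overlaps Csnk1d. The glucose importer Slc2a1 had 23.2 and 26.1 FPKM in KO DMSO and 17.7 and 16.2 FPKM in WT DMSO libraries, a log2 difference of 0.51 ± 0.11 (adjusted p = 0.0056). Pdk1, the kinase that keeps pyruvate out of the mitochondrial dehydrogenase complex, had 6.43 and 7.15 FPKM in KO DMSO and 2.82 FPKM in each WT DMSO library, a log2 difference of 1.03 ± 0.08 (adjusted p = 1.3e-05). The bifunctional enzymes that set the level of a phosphofructokinase activator differed in direction, Pfkfb3 being higher by 0.51 ± 0.12 (adjusted p = 0.0099) and Pfkfb4 lower by a log2 difference of -0.43 ± 0.15 (adjusted p = 0.044). Pfkfb3 lost its call without KO DMSO library 2 (0.45) or WT DMSO library 1 (0.33), and Pfkfb4 without any of 8 libraries (-0.44 to -0.22). Hif1a had 43.6 and 42.9 FPKM in KO DMSO and 29.7 and 29.2 FPKM in WT DMSO libraries, a log2 difference of 0.54 ± 0.08 (adjusted p = 0.00084).

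Decitabine raised many glycolytic enzymes in both genotypes. In KO, 7 of the 16 enzymes rose and 2 fell (Aldoc and Pfkm), with a median log2 change of 0.21 beside 0.01 over all genes. Leaving out Aldoc, which passed the filter only through the KO DMSO libraries, 7 of 15 enzymes rose and 1 fell. Of the 7, Ldha, Hk1 and Gpi1 kept their call in every alternative, and the small rise of Eno2 (0.16) lost it without any of 9 libraries (0.12 to 0.19). Over the 36 tested members 9 rose and 11 fell in KO (9 and 10 of 35 without Aldoc), where 45.2% of all genes were called (23.7% up and 21.6% down). In WT, 13 of the 16 enzymes rose and 1 fell, with a median of 0.61 beside -0.01 over all genes. Over the 36 members 19 rose and 2 fell in WT, against 28.3% of all genes called (14.5% up and 13.8% down). Without WT DAC library 3 and KO DAC library 1, 14 members rose and 13 fell in KO, and 21 rose and 2 fell in WT. Cell-type markers moved at the same time. Decitabine raised 4 and lowered 6 of 10 fibroblast markers in KO, and raised 1 and lowered 8 of them in WT. In WT it also raised 5 of 10 mesothelial markers and lowered none. Krt8 is among the 5, although it passed the filter only through the DAC libraries, and without it 4 of 9 rose. The part of these markers in the members' changes was not tested.

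**Figure D2:**
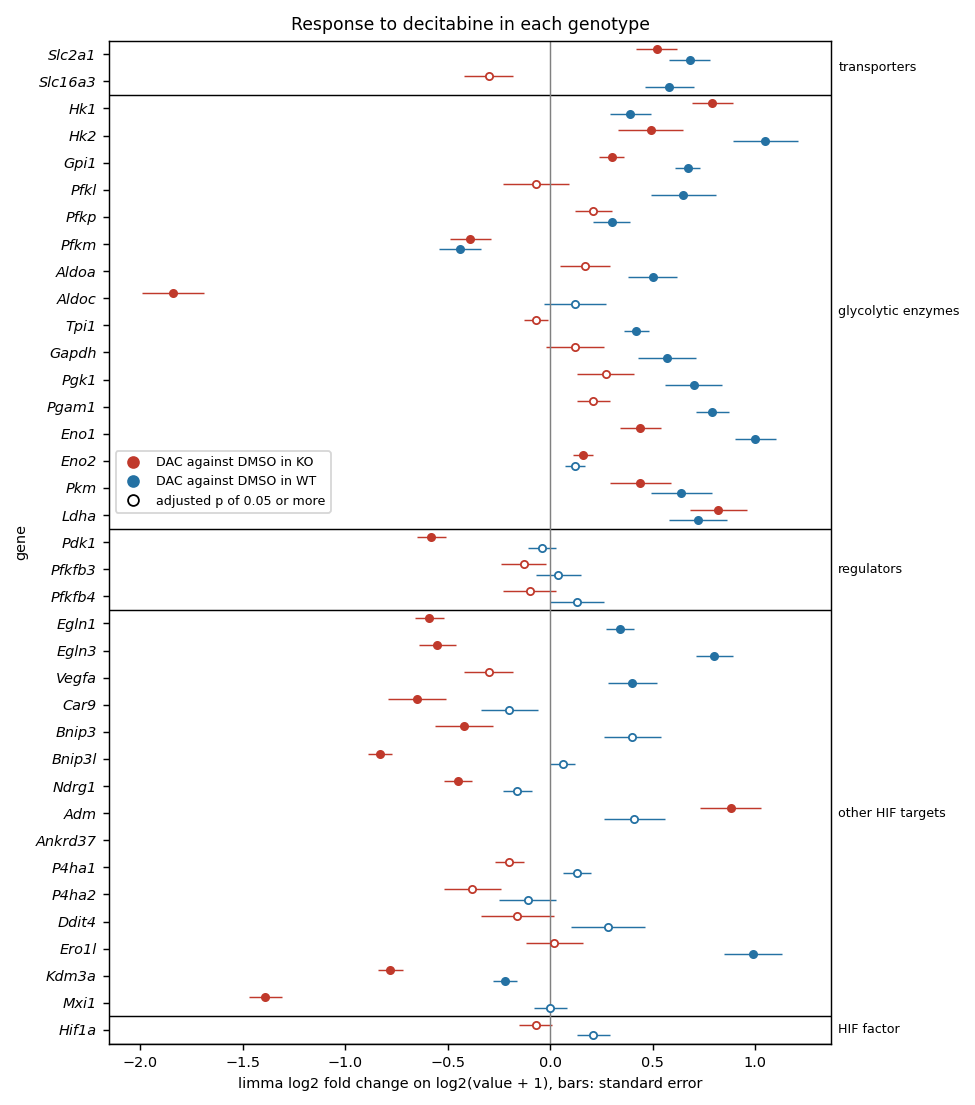
Limma log2 fold change of DAC against DMSO for each tested gene, in KO cells (red) and in WT cells (blue), with standard errors as bars, open points where the adjusted p was 0.05 or more, and genes grouped by role. Most glycolytic enzymes lie right of 0 in both genotypes, whereas Mxi1, Bnip3l, Car9, Egln1 and Ndrg1 lie left of 0 in KO cells.

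Ldha was at 75.0, 92.0 and 92.5 FPKM in KO DAC and 45.2 and 52.0 FPKM in KO DMSO libraries, and at 86.0, 85.2 and 67.1 FPKM in WT DAC and 50.5 and 44.8 FPKM in WT DMSO libraries. In each genotype the DAC libraries stood above the DMSO libraries, by a log2 change of 0.82 ± 0.14 in KO (limma adjusted p = 0.0013) and 0.72 ± 0.14 in WT (adjusted p = 0.0047). The call in WT ended without WT DMSO library 2 (0.64, adjusted p = 0.052). Hk1 had 13.0, 14.4 and 15.6 FPKM in KO DAC and 7.28 and 8.43 FPKM in KO DMSO libraries, a rise of 0.79 ± 0.1 log2 units (adjusted p = 0.00035). In WT the rise of Hk1 was 0.39, and it missed the threshold without either WT DMSO library, WT DAC library 1 or WT DAC library 2 (0.33 to 0.41).

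Hk2 rose by 0.49 log2 units in KO, a call lost without KO DAC library 2, KO DAC library 3 or either KO DMSO library (0.40 to 0.58), and by 1.05 ± 0.16 in WT (adjusted p = 0.0015). Eno1 had 219, 221 and 214 FPKM in KO DAC, against 156 and 166 FPKM in KO DMSO, and 150, 145 and 143 FPKM in WT DAC, against 83.0 and 63.6 FPKM in WT DMSO libraries. It rose by 0.44 log2 units in KO, where the call ended without KO DMSO library 1 (0.39), and by 1.0 ± 0.1 in WT (adjusted p = 0.00016). Pgam1 was not called in KO (0.21, adjusted p = 0.056) and rose by 0.79 ± 0.08 in WT (adjusted p = 0.00018). Pkm rose by 0.44 in KO, a call lost without KO DAC library 2, KO DAC library 3 or either KO DMSO library (0.37 to 0.52), and by 0.64 in WT, a call lost without WT DMSO library 2 (0.55).

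Gpi1 rose in both genotypes, by 0.30 ± 0.06 in KO (adjusted p = 0.0036) and 0.67 ± 0.06 in WT (adjusted p = 0.0001). Pgk1, with the promoter shown above, had 74.2, 86.8 and 92.5 FPKM in KO DAC and 66.7 and 72.3 FPKM in KO DMSO libraries (not called), and 79.9, 80.7 and 61.9 FPKM in WT DAC and 48.8 and 41.1 FPKM in WT DMSO libraries. It rose by 0.7 ± 0.14 log2 units in WT (adjusted p = 0.0057), a call lost without WT DMSO library 2 (0.58, adjusted p = 0.063). Pfkm was the enzyme that fell in both genotypes, by log2 changes of -0.39 in KO and -0.44 in WT. Its fall in KO was lost without KO DMSO library 2 (-0.35) and its fall in WT without WT DMSO library 2 (-0.30). That last library ended 13 of the 21 member calls in WT when it was left out, and the calls of Hk2, Eno1, Pgam1, Gpi1, Tpi1, Slc2a1, Egln3 and Ero1l were kept without any 1 library.

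Among the transporters, Slc2a1 rose under decitabine in both genotypes, with 33.5, 36.3 and 37.5 FPKM in KO DAC against 23.2 and 26.1 FPKM in KO DMSO, and 29.7, 29.9 and 24.2 FPKM in WT DAC against 17.7 and 16.2 FPKM in WT DMSO libraries. The log2 change was 0.52 ± 0.1 in KO (adjusted p = 0.003) and 0.68 ± 0.1 in WT (adjusted p = 0.0014). Slc16a3 had a log2 change of -0.30 in KO that was not called (adjusted p = 0.078) and rose in WT by 0.58 ± 0.12 (adjusted p = 0.0078), or 0.57 with an adjusted p of 0.058 without WT DMSO library 2.

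More of the other HIF targets fell than rose in KO cells given decitabine. In KO, 8 of the 14 tested fell and 1 rose, with a median log2 change of -0.43. Over all genes 21.6% fell and 23.7% rose in KO, with a median of 0.01. In WT 4 of the HIF targets rose and 1 fell, with a median of 0.21. Over all genes 14.5% rose and 13.8% fell in WT, with a median of -0.01. Mxi1 fell in KO by a log2 change of -1.39 ± 0.08 (limma adjusted p = 2.1e-06), to levels near those of WT cells, where its change was 0.00 (adjusted p = 0.996). Bnip3l had 13.2, 12.7 and 11.8 FPKM in KO DAC, 23.8 and 22.4 FPKM in KO DMSO, 13.2, 13.5 and 13.7 FPKM in WT DAC and 12.8 and 12.9 FPKM in WT DMSO libraries. Only the KO DMSO libraries were high, and the log2 change in KO was -0.83 ± 0.06 (adjusted p = 7.6e-06). Kdm3a had 17.5, 17.4 and 18.3 FPKM in KO DAC, 31.2 and 31.1 FPKM in KO DMSO, 13.3, 13.9 and 14.1 FPKM in WT DAC and 15.1 and 17.3 FPKM in WT DMSO libraries. It fell in KO by a log2 change of -0.78 ± 0.06 (adjusted p = 1.9e-05), and its fall in WT (-0.22) was lost without any of 6 libraries (-0.22 to -0.12).

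Car9 (-0.65), Egln1 (-0.59), Egln3 (-0.55) and Ndrg1 (-0.45) also fell in KO, with adjusted p-values of 0.0047, 0.0002, 0.0012 and 0.00099. Bnip3 fell by -0.42, a call lost without KO DAC library 2, KO DAC library 3 or either KO DMSO library (-0.48 to -0.35). Egln1 and Egln3 went the other way in WT, where they rose by 0.34 and 0.80 log2 units, the call of Egln1 ending without WT DMSO library 2 (0.33). Ero1l had 16.0, 11.5 and 11.3 FPKM in KO DAC, 12.1 and 13.2 FPKM in KO DMSO, 11.3, 10.3 and 10.8 FPKM in WT DAC and 5.41 and 4.54 FPKM in WT DMSO libraries, and it rose in WT by 0.99 ± 0.14 (adjusted p = 0.001). Adm was the HIF target that rose in KO, with 3.46, 3.24 and 2.86 FPKM in KO DAC and 1.30 and 1.23 FPKM in KO DMSO libraries, a log2 change of 0.88 ± 0.15 (adjusted p = 0.0012). Pdk1, a regulator, had 4.03, 4.29 and 4.31 FPKM in KO DAC, 6.43 and 7.15 FPKM in KO DMSO, 2.70, 2.59 and 2.87 FPKM in WT DAC and 2.82 FPKM in each WT DMSO library. It fell in KO by a log2 change of -0.58 ± 0.07 (adjusted p = 0.00024). Aldoc, at -1.84, had the same pattern of high values in KO DMSO alone, which is given with no test because those libraries carried it past the filter. Of the mesothelial markers, 7 fell in KO under decitabine, as these genes did, while Krt19 rose. Krt8, which passed the filter only through the DAC libraries, was also higher there. The part of these markers in the result was not tested.

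Summed over genes, the glycolytic enzymes reached 1850, 2107 and 2105 FPKM in KO DAC, 1652 and 1779 FPKM in KO DMSO, 1678, 1672 and 1385 FPKM in WT DAC and 1079 and 953 FPKM in WT DMSO libraries. The sum was highest in KO DAC and lowest in WT DMSO. The 15 other HIF targets summed to 151, 153 and 151 FPKM in KO DAC, 215 FPKM in each KO DMSO library, 144, 143 and 134 FPKM in WT DAC and 119 and 122 FPKM in WT DMSO libraries. Here KO DMSO was highest, and the 2 sums were thus ordered differently across the groups.

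**Figure D3:**
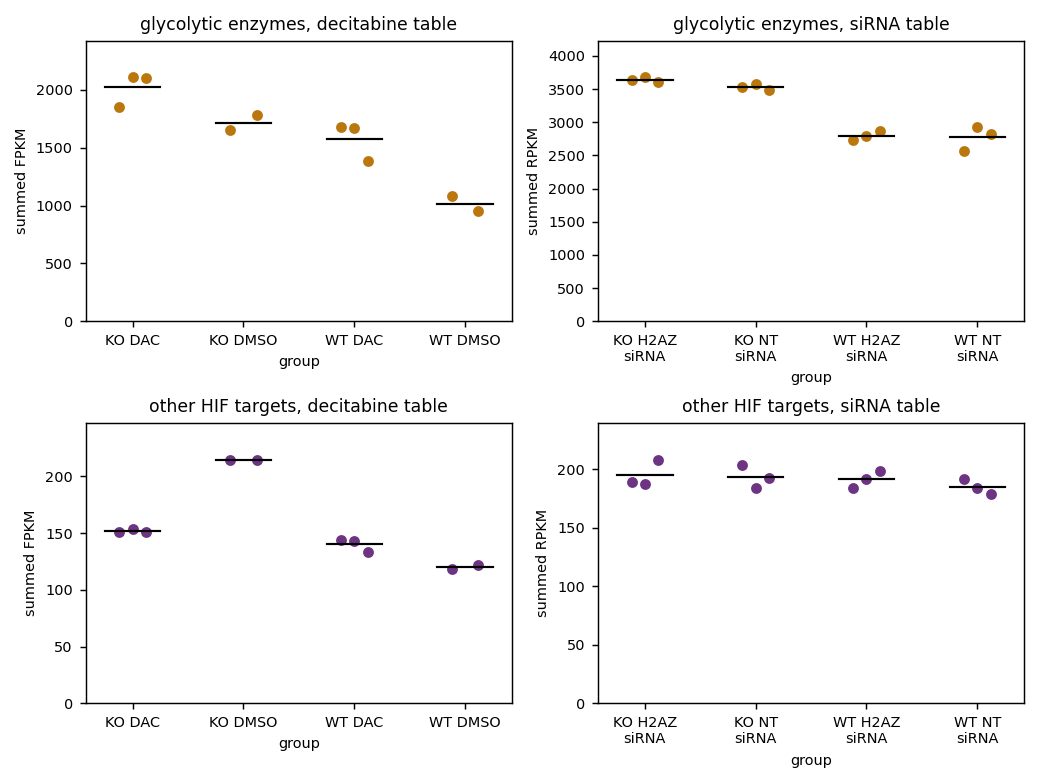
Summed level of the 16 glycolytic enzymes and of the 15 other HIF targets in each library, in FPKM for the DAC table and RPKM for the siRNA table, with 1 point per library and a bar at each group mean. In the DAC table the enzymes are highest in the KO DAC libraries (1850 to 2107 FPKM), whereas the other HIF targets are highest in the KO DMSO libraries (215 FPKM).

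The response to decitabine was then compared between genotypes as the interaction, the log2 change in KO minus that in WT. It was negative and past the threshold for 15 of the 36 members tested and positive for none, while 24.1% of all genes were called, 12.4% positive and 11.7% negative. Leaving out Aldoc, which passed the filter only through the KO DMSO libraries, 14 of 35 members were called negative. Without WT DAC library 3 and KO DAC library 1 it was negative for 23 members and positive for 1, Hk1 (0.38). The 8 other HIF targets called of 14 were Mxi1 (-1.39), Egln3 (-1.35), Ero1l (-0.97), Egln1 (-0.93), Bnip3l (-0.89), Bnip3 (-0.82), Vegfa (-0.71) and Kdm3a (-0.56). The 5 glycolytic enzymes called of 16 were Aldoc (-1.97, carried past the filter by KO DMSO alone), Pgam1 (-0.58), Eno1 (-0.56), Tpi1 (-0.49) and Gpi1 (-0.37). Slc16a3 (-0.88) and Pdk1 (-0.54) complete the 15. The median interaction was -0.63 over the HIF targets, -0.40 over the enzymes and 0.04 over all genes. Without Aldoc, 4 of 15 enzymes were called and their median was -0.37. Mxi1, Egln3 and Bnip3l had standard errors of 0.11, 0.13 and 0.08 and adjusted p-values of 4.7e-05, 0.00013 and 0.00011 in limma. The interaction was not called for Ldha (0.10 ± 0.19, adjusted p = 0.776), Slc2a1 (-0.16 ± 0.14, adjusted p = 0.474) or Hk2 (-0.56 ± 0.22, adjusted p = 0.108).

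The calls of the interaction were ended by single libraries in 4 cases. Bnip3 lost its call without KO DMSO library 1 (-0.75) or WT DMSO library 2 (-0.65), Eno1 without either KO DMSO library (-0.60 and -0.52), Gpi1 without KO DMSO library 2 (-0.33), and Vegfa without KO DMSO library 2 or either WT DMSO library (-0.72 to -0.65). The interaction, the response in KO and the difference between genotypes in DMSO share the 2 KO DMSO libraries, so their values are set side by side and are not independent. The mesothelial markers were called negative for 8 of 10 in the same interaction, and their part in the members' result was not tested.

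Under decitabine the genotypes still differed in many enzymes and in a few other HIF targets. Of 36 tested, 17 were higher and 3 lower in KO DAC than in WT DAC, against 22.7% of all genes called (11.1% higher and 11.6% lower). The libraries of the 2 groups did not overlap for 22 members, nor for 36.9% of all genes. Among other HIF targets 4 of 14 were higher and none was lower, with a median log2 difference of 0.08, and among glycolytic enzymes 8 of 16 were higher and 2 lower, with a median of 0.20. The median over all genes was 0.00. Without WT DAC library 3 and KO DAC library 1, 16 members were higher and 4 lower. Egln3 again differed most, by 1.41 ± 0.08 log2 units (limma adjusted p = 1.1e-05), followed by Slc16a3 (0.83), Hk2 (0.76) and Eno1 (0.57). Gapdh was higher by 0.52, and lost its call without KO DAC library 2 or KO DAC library 3 (0.47 each). Aldoa (0.41) and Pgam1 (0.31) were called too, Aldoa losing its call without KO DAC library 2 or KO DAC library 3 (0.37 each), Pgam1 without KO DAC library 2 (0.30), and Eno2 (0.22) without WT DAC library 2 (0.20). Pdk1 (0.49), Gpi1 (0.46), Mxi1 (0.38) and Kdm3a (0.34) were also higher. Vegfa, higher by 0.39, lost its call without KO DAC library 2 (0.37), KO DAC library 3 (0.35) or WT DAC library 2 (0.43), and Slc2a1, higher by 0.35, lost it without KO DAC library 2 or KO DAC library 3 (0.34 and 0.32). Pfkfb4 (-0.66) and Pfkp (-0.52) were lower in KO, and Pfkm (-0.31) was lower with a call that ended without any of 6 libraries (-0.32 to -0.25). Pfkfb3 (0.34) and Hif1a (0.26) were called with all libraries, and lost the call without any of 8 (0.31 to 0.37) and 4 libraries (0.20 to 0.27). Egln1, Bnip3l and Aldoc, which differed between the genotypes in DMSO, had log2 differences of -0.07, -0.10 and 0.10 here, none of them called.

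In the second experiment the glycolytic enzymes were again higher in KO, and the other HIF targets were divided. In the NT control, 12 of 15 tested enzymes were higher and 1 lower in KO, with a median log2 difference of 0.51, and 5 of 14 other HIF targets were higher and 3 lower, with a median of 0.05. Over the 34 members tested, 19 were higher and 5 lower, against 64.1% of all 12668 genes called (23.7% higher and 40.4% lower), and the median over all genes was -0.10. The 2 groups did not overlap for 25 of the 34, nor for 66.8% of all genes. Egln3 passed the filter in this table only through KO libraries, and without it 4 of 13 other HIF targets were higher and 3 lower, with a median of 0.03. With each library scaled to its own median, which moved the median of all genes by more than 0.1 log2 units to 0.03, 25 members were higher and 5 lower in KO NT, and the split over all genes was 4288 higher and 3780 lower in place of 3004 and 5122. All 24 calls were kept in every alternative in which the gene was tested, 5 of them (Egln3, Eno2, Mxi1, Pfkfb4 and Pfkp) being left untested by a filter at 5 RPKM. Aldoc, Pfkfb3 and Car9 fell below the filter in this table, with 17 to 132, 123 to 273 and 15 to 76 reads per library.

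Egln3 had 4.44, 4.09 and 4.87 RPKM in KO H2AZ siRNA, 3.28, 3.46 and 3.27 RPKM in KO NT, 0.751, 0.917 and 0.918 RPKM in WT H2AZ siRNA and 0.907, 0.804 and 0.759 RPKM in WT NT libraries. All 6 KO libraries lay above all 6 WT libraries, none of which reached 1 RPKM. The log2 differences, 1.55 when H2A.Z was depleted and 1.25 in NT, are given with no test, since the KO libraries alone carried Egln3 past the filter. Gpi1 had 68.3, 69.2 and 68.4 RPKM in KO NT and 39.8, 44.4 and 43.9 RPKM in WT NT libraries, a log2 difference of 0.67 ± 0.04 (limma adjusted p = 2.4e-07). Gapdh had 301, 318 and 307 RPKM in KO NT and 179, 210 and 211 RPKM in WT NT libraries, a log2 difference of 0.63 ± 0.06 (adjusted p = 4.3e-06). Pgam1 (0.66), Pfkl (0.56), Tpi1 (0.53), Eno2 (0.53), Aldoa (0.51) and Pfkm (0.51) were higher by similar amounts. Ldha had 307, 290 and 302 RPKM in KO NT and 252, 302 and 281 RPKM in WT NT libraries, which overlapped, and was not called (0.11 ± 0.06, adjusted p = 0.128), nor was Hk2 (0.01). With median scaling Ldha was called at 0.23.

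Adm (chromosome 7 from 110627657 to 110629820) was the member with the lowest log2 difference in both siRNA groups. It had 5.69, 6.62 and 5.54 RPKM in KO H2AZ siRNA, 6.26, 6.29 and 5.88 RPKM in KO NT, 14.4, 15.0 and 14.7 RPKM in WT H2AZ siRNA and 15.2, 14.5 and 14.9 RPKM in WT NT libraries. The 2 genotypes were clearly apart, with a log2 difference of -1.18 ± 0.06 when H2A.Z was depleted (adjusted p = 2.4e-08) and -1.15 ± 0.06 in NT (adjusted p = 2.8e-08). A noncoding RNA, Gm28863, overlaps the whole of Adm. Pfkp had 1.90, 1.70 and 1.82 RPKM in KO NT and 3.87, 3.71 and 3.88 RPKM in WT NT libraries, a log2 difference of -0.78 ± 0.05 (adjusted p = 1.6e-07). Ero1l (-0.46), Pfkfb4 (-0.38) and Egln1 (-0.25) were lower too, while Bnip3 (0.47), Mxi1 (0.43), Kdm3a (0.42) and P4ha1 (0.21) were higher. Slc2a1 had 31.7, 29.3 and 29.5 RPKM in KO NT and 19.997, 22.4 and 21.4 RPKM in WT NT libraries, and differed by 0.49 ± 0.05 (adjusted p = 6.4e-06). Slc16a3, with the larger difference in DMSO, had 4.80, 3.98 and 4.59 RPKM in KO NT and 3.55, 4.17 and 3.73 RPKM in WT NT libraries, which overlapped, and was not called (0.18, adjusted p = 0.08). Pdk1 was higher by 0.66 ± 0.1 (adjusted p = 0.00019). Hif1a was not called (0.03, adjusted p = 0.751). The mesothelial marker sum was again higher in KO than in WT, and 6 of the 9 markers tested passed the filter only through KO libraries. Of the fibroblast markers, 6 of 10 were higher and 1 lower in KO. Their part in these differences was not tested.

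**Figure D4:**
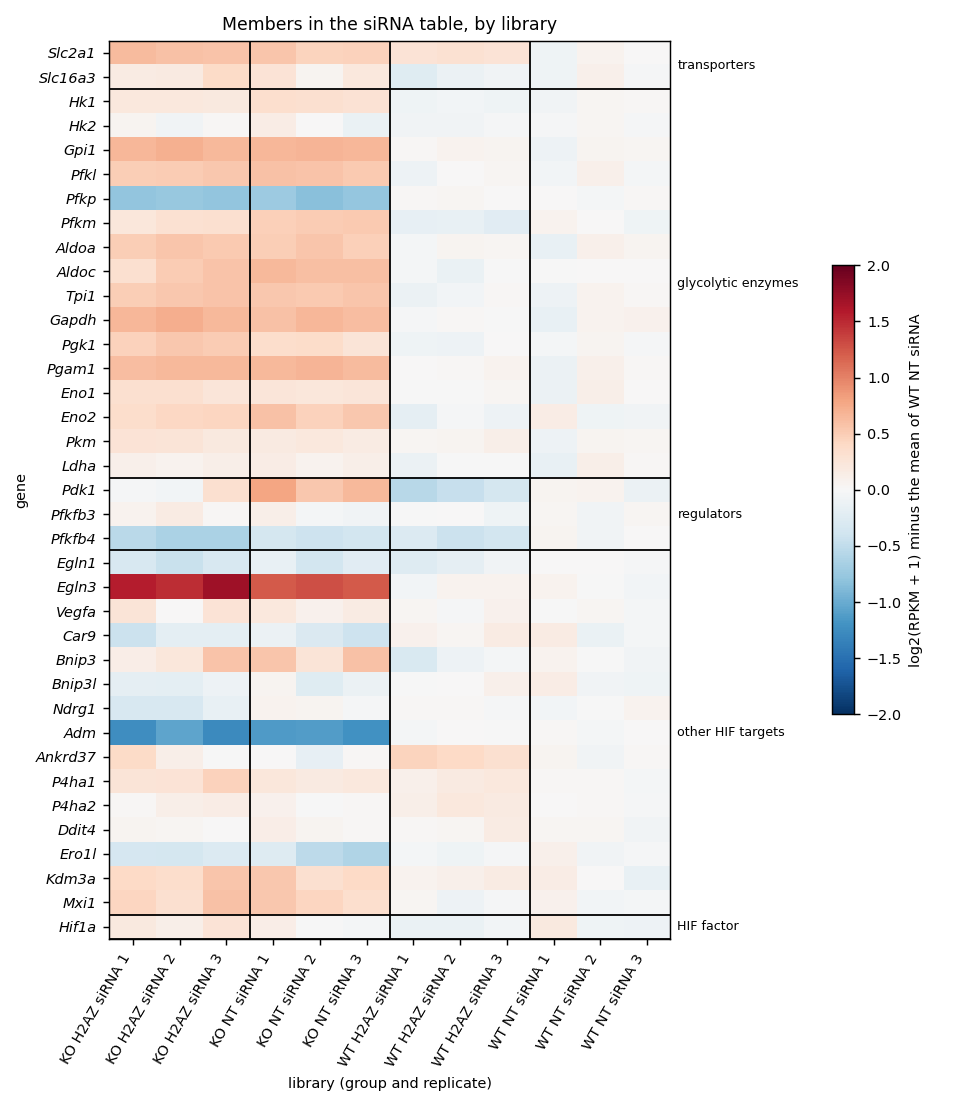
Level of each gene in each library of the siRNA table, as log2(RPKM + 1) minus the mean of the WT NT libraries, with genes down the page by role and libraries across in the order KO H2AZ siRNA, KO NT, WT H2AZ siRNA and WT NT. Red is above and blue below the WT NT mean. Egln3 and most glycolytic enzymes are red in the 6 KO libraries, and Adm and Pfkp are blue there.

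With H2A.Z depleted in both genotypes, 21 of 34 members were higher and 7 lower in KO, against 62.9% of all genes called (20.2% higher and 42.7% lower). Leaving out Egln3, which passed the filter only through KO libraries, 20 of 33 members were higher and 7 lower. The groups did not overlap for 29 members, nor for 70.0% of all genes. The enzymes again counted 12 higher and 1 lower of 15, with a median of 0.50, and the other HIF targets 5 higher and 5 lower of 14, with a median of -0.06, beside -0.12 over all genes. Apart from Egln3, 4 of 13 other HIF targets were higher and 5 lower, with a median of -0.07. With median scaling 24 members were higher and 2 lower, and the split over all genes was 4281 higher and 3635 lower in place of 2563 and 5409. Median scaling ended the lower calls of Ero1l (-0.28, then -0.12), Ndrg1 (-0.27, then -0.11), Pfkfb4 (-0.24, then -0.09), Egln1 (-0.19, then -0.04) and Bnip3l (-0.19, then -0.04), and those of Adm and Pfkp remained. Single libraries also ended the calls of Bnip3l (9 libraries, -0.22 to -0.16), of Egln1 without KO H2AZ siRNA library 2 or WT H2AZ siRNA library 3 (-0.15 each), and of P4ha1 (0.16) without KO H2AZ siRNA library 3 (0.10) or WT H2AZ siRNA library 1 (0.13). Pgk1 had 336, 352 and 345 RPKM in KO H2AZ siRNA and 229, 226 and 245 RPKM in WT H2AZ siRNA libraries, a log2 difference of 0.56 ± 0.05 (limma adjusted p = 1.8e-06). Slc16a3 (0.38, adjusted p = 0.0019) and Hif1a (0.30, adjusted p = 0.006) were called in this comparison.

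Under H2AZ siRNA 17.6% of the tested members were called in each genotype, near the share of all genes in WT and below it in KO. In KO, 2 members rose and 4 fell of 34, against 25.5% of all genes called (6.56% up and 19.0% down). In WT, 3 rose and 3 fell, against 15.3% of all genes called (4.88% up and 10.4% down). Without WT NT library 1 and KO NT library 1, 5 rose and 3 fell in KO, and 2 rose and 2 fell in WT. With median scaling the counts were 7 up and 2 down in KO and 4 up and 2 down in WT, and over all genes 2010 up and 1367 down in KO in place of 831 and 2404, and 1306 up and 878 down in WT in place of 618 and 1315. Pdk1 fell in both. It had 3.93, 3.82 and 5.23 RPKM in KO H2AZ siRNA, 7.68, 6.30 and 6.85 RPKM in KO NT, 2.43, 2.62 and 2.92 RPKM in WT H2AZ siRNA and 4.22, 4.24 and 3.60 RPKM in WT NT libraries. In each genotype the H2AZ siRNA libraries lay below the NT libraries, with log2 changes of -0.58 ± 0.1 in KO (limma adjusted p = 0.0022) and -0.46 ± 0.1 in WT (adjusted p = 0.013). The call in WT ended without WT H2AZ siRNA library 1 (-0.41, adjusted p = 0.056).

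Pfkfb4 fell by log2 changes of -0.22 in KO and -0.35 in WT. Its call in KO ended with median scaling (-0.14) or without KO NT library 1, KO NT library 3, KO H2AZ siRNA library 2 or KO H2AZ siRNA library 3 (-0.22 to -0.20). Pfkm fell by -0.22 in KO and -0.18 in WT, and both calls ended with median scaling (-0.13 and -0.12), that in WT also without any of 6 libraries. Ndrg1 fell in KO by -0.30 ± 0.06 (adjusted p = 0.004). Egln3 rose in KO by 0.33 ± 0.07 (adjusted p = 0.0045), its 3 KO H2AZ siRNA libraries lying above the 3 KO NT libraries. Pgk1 rose in KO by 0.18, a call lost without KO NT library 3 or KO H2AZ siRNA library 2 (0.14 and 0.16). In WT, Slc2a1 had 25.9, 26.3 and 26.0 RPKM in H2AZ siRNA and 19.997, 22.4 and 21.4 RPKM in NT libraries, a rise of 0.28 ± 0.05 (adjusted p = 0.0029). Ankrd37 (0.38) and P4ha2 (0.17) also rose in WT, and lost their calls without any of 3 (0.35 to 0.38) and 8 libraries (0.15 to 0.19).

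The H2AZ siRNA response did not differ detectably between the genotypes for any member. The interaction gave 0 calls among 34 members in limma and 1 among 12668 genes (0.00789%). That gene was H2afz, the main H2A.Z gene, whose fall was smaller in KO (interaction of 0.72 with no filter, where the call was lost). At an unadjusted p under 0.05, 5 members (Egln3, Hif1a, Ndrg1, Pgk1 and Slc2a1) and 1095 genes (8.64%) passed. Limma-voom on the recovered reads likewise called 0 members.

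**Figure D5:**
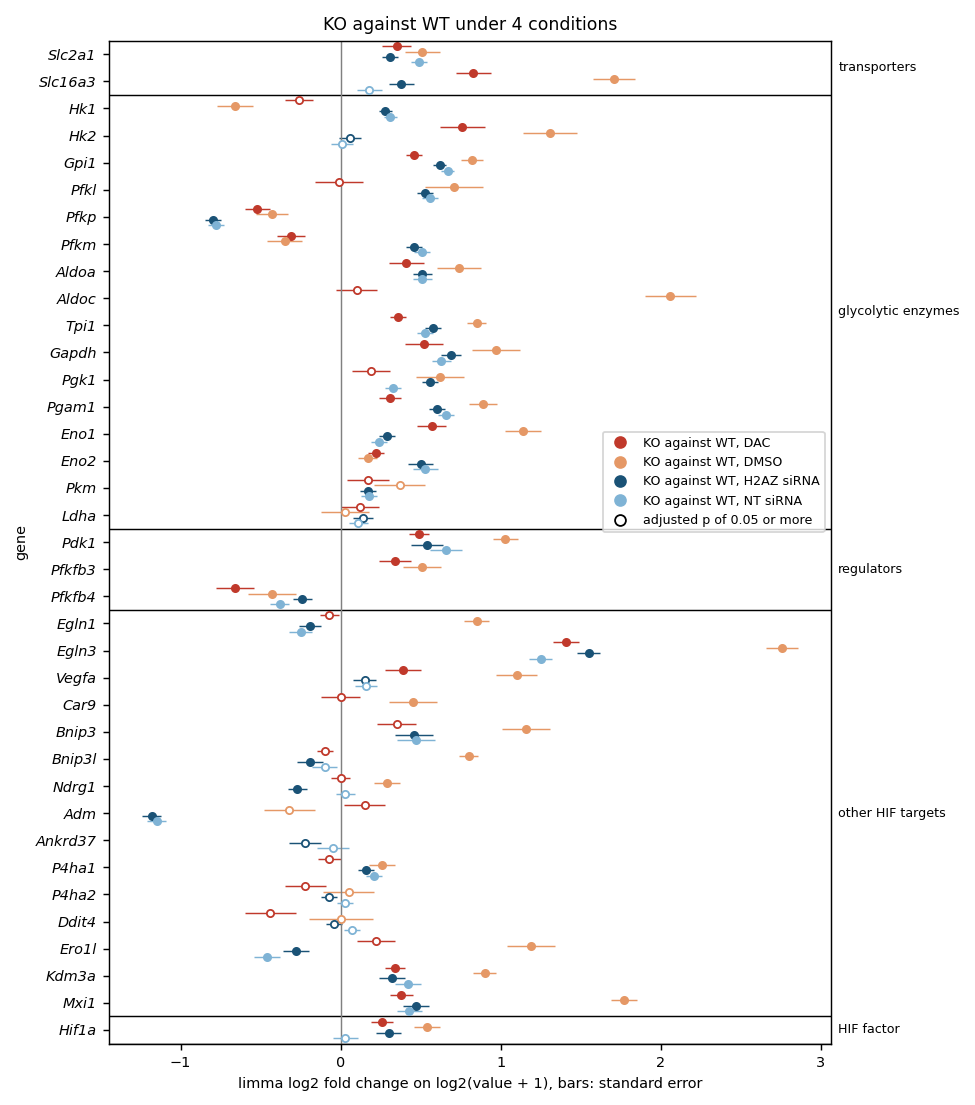
Limma log2 fold change of KO against WT for each tested gene under DAC, DMSO, H2AZ siRNA and NT siRNA, with standard errors as bars, open points where the adjusted p was 0.05 or more, and genes grouped by role. Egln3 lies far to the right under all 4 conditions (1.25 to 2.76), and Adm and Pfkp lie left of 0 in both siRNA groups.

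Across the 4 comparisons of KO with WT, 33 members were tested in both tables. Of these, 12 (36.4%) were higher in KO in all 4, where 3.29% of the 11906 genes tested in both tables were. They are 7 glycolytic enzymes (Gpi1, Aldoa, Tpi1, Gapdh, Pgam1, Eno1 and Eno2), the HIF targets Egln3 (described without a test in the siRNA table), Kdm3a and Mxi1, the transporter Slc2a1 and the regulator Pdk1. The share of 36.4% includes Egln3, which KO libraries alone carried past the filter in the siRNA table. As given above, single libraries ended the calls of Eno2 in DMSO and DAC, and of Aldoa, Gapdh, Pgam1 and Slc2a1 in DAC. Pfkp and Pfkfb4 were lower in all 4 (6.06% of members and 5.12% of genes), and single libraries ended the DMSO call of each. Hk1, Pfkm, Egln1 and Ero1l were called in opposite directions in DMSO and in NT (12.1% of members and 11.6% of genes). Hk1, for example, had 7.28 and 8.43 FPKM in KO DMSO and 13.2 and 12.7 FPKM in WT DMSO libraries, and 16.8, 16.5 and 16.1 RPKM in KO NT and 12.4, 13.5 and 13.3 RPKM in WT NT libraries. The tables come from separate experiments with their own scaling, so only the directions are set beside each other.

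Because levels are per kilobase, the isoenzymes of a step can be given as shares of their sum, as a description without a test. Hk2 made up 38.1% ± 1.19 of hexokinase transcripts in KO DAC (SD, n = 3), 43.3% ± 0.00141 in KO DMSO (n = 2), 21.7% ± 1.56 in WT DAC (n = 3) and 12.3% ± 2.51 in WT DMSO libraries (n = 2). In the siRNA table its share was 21.6%, 20.4%, 24.4% and 24.3% in KO H2AZ siRNA, KO NT, WT H2AZ siRNA and WT NT libraries, lower in both KO groups than in both WT groups. Pfkl was 44.9% of phosphofructokinase transcripts in KO DMSO and 26.6% in WT DMSO libraries, and Pfkm 47.1% and 61.5%. In the siRNA table Pfkl predominated in all groups (69.1% to 75.8%), and Pfkp made up 2.92% in KO NT and 8.64% in WT NT libraries. Aldoc reached 3.24% of aldolase transcripts in KO DMSO libraries and 0.344% in WT DMSO libraries. Egln3 made up 34.6% of the summed Egln1 and Egln3 transcripts in KO DMSO and 5.09% in WT DMSO libraries, and 23.1% in KO NT and 5.79% in WT NT libraries.

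Neighbouring genes of the pathway, from lists of textbook roles also chosen with earlier results of these data known, were read from the same fits. Of 12 tested genes among other glycolysis and lactate genes, 3 were higher and 1 lower in KO under DMSO, beside 19.6% higher and 22.9% lower over all genes. Ldhb, the second lactate dehydrogenase subunit, averaged 5.73 ± 0.852 FPKM in KO DAC (SD, n = 3), 28.4 ± 0.787 FPKM in KO DMSO (n = 2), 5.68 ± 0.142 FPKM in WT DAC (n = 3) and 5.39 ± 0.279 FPKM in WT DMSO libraries (n = 2). It was high in KO DMSO alone, like Aldoc and Mxi1, with a log2 difference of 2.2 ± 0.11 in DMSO (limma adjusted p = 8.7e-07) and an interaction of -2.2 ± 0.14 (adjusted p = 1.6e-05). Ldha, the partner subunit, did not differ between the genotypes in DMSO, as given above. Slc16a1, another monocarboxylate transporter, was higher in KO by 1.71 in DMSO and 0.87 in NT. The glucose importer Slc2a3 is among the genes called higher in both, but passed the filter only through KO libraries. In the NT control 6 of 11 tested genes of this list were higher and 2 lower in KO, beside 23.7% and 40.4% of all genes.

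The list of pyruvate entry into mitochondria had 1 gene higher and 4 lower of 11 in KO under DMSO, and 1 higher and 10 lower in NT, where 40.4% of all genes were lower. Decitabine lowered Pdk2, a kinase of the pyruvate dehydrogenase complex, by log2 changes of -1.5 in KO and -1.11 in WT, and raised its relative Pdk4 by 0.87 and 0.79. Of 8 tested genes of the HIF machinery, 2 were higher and 1 lower in KO under DMSO, and decitabine raised 1 and lowered 3 in KO and lowered Arnt (-0.29) in WT, where 42.4%, 45.2% and 28.3% of all genes were called in the 3 comparisons. These shares of the list are near or below those of all genes. A list of further HIF targets had 15 higher and 8 lower of 35 in KO under DMSO, with a median of 0.22, beside 19.6% higher and 22.9% lower over all genes. Leaving out Flt1, which passed the filter through 1 side only, 14 of 34 were higher and 8 lower. Decitabine raised 8 and lowered 15 of the 35 in KO, where 23.7% of all genes rose and 21.6% fell. In WT it raised 13 and lowered 6, where 14.5% of all genes rose and 13.8% fell. Apart from Flt1 it raised 7 and lowered 15 in KO and raised 12 and lowered 6 in WT. The interaction was negative for 14 and positive for 3, beside 11.7% negative and 12.4% positive over all genes. Pdgfb, a growth factor, averaged 4.76 ± 0.262 FPKM in KO DAC (SD, n = 3), 11.0 ± 0.00631 FPKM in KO DMSO (n = 2), 4.17 ± 0.586 FPKM in WT DAC (n = 3) and 1.07 ± 0.00382 FPKM in WT DMSO libraries (n = 2), with an interaction of -2.37 ± 0.14 (adjusted p = 9.8e-06). Stc1, a secreted glycoprotein, had an interaction in the other direction, at 1.94 ± 0.14 (adjusted p = 2.9e-05). In NT the further HIF targets counted 15 higher and 15 lower of 33, or 13 and 13 of 29 without those that passed the filter through 1 genotype only. Over all genes 23.7% were higher and 40.4% lower there.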

How the data were processed

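RNA was extracted with a Direct-zol kit, made into TruSeq Stranded Total RNA libraries and sequenced in pairs, per the labels' protocols. The submitters' processing notes name STAR, Bowtie2, deepTools and the mm10 build. No source used here gives the counter, its strand setting or the annotation. The authors deposited FPKM for the 10 libraries of the DAC experiment and RPKM for the 12 libraries of the siRNA experiment. In both tables whole reads were recovered: all 35023 genes above 0 gave whole numbers within 0.01. On these totals 1 read in a gene of 1 kb is worth 0.0271 to 0.0364 FPKM or 0.0212 to 0.0313 RPKM. Of 43432 genes, 42462 (97.8%) matched a symbol.

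Values were tested as log2(value + 1) with limma 3.58.1 (trend; R 4.3.3), on the 16434 genes of the DAC table at 1 or more in at least 2 libraries, and the 12668 genes of the siRNA table at 1 or more in at least 3. Each table had a single fit over its 4 groups with 5 contrasts, and p-values were adjusted by Benjamini-Hochberg over all genes of a contrast. Tables and figures were made with Python 3.11.15, pandas 2.3.3, numpy 2.4.6 and matplotlib 3.10.9. The fits were tested on simulated data. The members and lists were chosen with earlier results of these data known. All 37 members are accounted for, with full statistics in each comparison for the called members of greatest change (8 at most in each direction), for groups of at most 3 members, and for up to 5 called genes in each direction of other lists. Alternatives were median scaling, other filters (none, or 5 in place of 1), a smaller pseudocount (0.1), a replicate block, the compared groups alone, limma-voom on recovered reads, and libraries left out. Same-numbered KO H2AZ siRNA and KO NT libraries deviated together (correlations of 0.144 to 0.27 in 3 of 3 pairs), so these numbers may pair the samples. The block, which gives all 4 groups of a table the same replicate effect, changed no member's call in that comparison. The statistics reported for it come from the fit without the block.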

Additional observations from a re-analysis of the deposited data

Results flagged for a closer look

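In 15 genes the response to decitabine differed between KO and WT cells by the test of the difference itself (limma interaction, log2 change in KO minus that in WT, Benjamini-Hochberg adjusted p under 0.05 over all genes). All 15 differences were negative. They were -1.97 for Aldoc, -1.39 for Mxi1, -1.35 for Egln3, -0.97 for Ero1l, -0.93 for Egln1, -0.89 for Bnip3l, -0.88 for Slc16a3, -0.82 for Bnip3, -0.71 for Vegfa, -0.58 for Pgam1, -0.56 for Kdm3a, -0.56 for Eno1, -0.54 for Pdk1, -0.49 for Tpi1 and -0.37 for Gpi1. The 15 differences share the same 10 libraries, and each rests on 2 KO DMSO and 2 WT DMSO libraries. Aldoc passed the filter on low values only through the 2 KO DMSO libraries, so its difference is a description and 14 others remain.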

How the results depend on the processing

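Each DMSO group has only 2 libraries. No called gene changed sign in any alternative, but some balances of counts did. For DAC in KO, 11 members rose and 10 fell with median scaling (9 and 11 as reported), and 14 and 13 without WT DAC library 3 and KO DAC library 1. For H2AZ siRNA in KO, 7 rose and 2 fell with median scaling (2 and 4). Of the called members, 11 of 20 (KO against WT in DAC), 21 of 31 (KO against WT in DMSO), 14 of 20 (DAC in KO), 8 of 21 (DAC in WT), 11 of 15 (DAC interaction), 22 of 28 (KO against WT in H2AZ siRNA), 24 of 24 (KO against WT in NT), 3 of 6 (H2AZ siRNA in KO) and 2 of 6 (H2AZ siRNA in WT) kept their call in each alternative in which they were tested. The filter at 5 removed up to 5 of those that kept it, and Aldoc was also not tested without either KO DMSO library. Leaving out members that passed the filter through 1 side only, a choice made after seeing the data, removed 1 call at most per comparison. Where values moved, the cause was not tested.

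The median over other HIF targets between KO and WT in DMSO was 0.88 with a pseudocount of 0.1, 0.90 with a filter at 5 and 0.88 with limma-voom (0.82 as reported). In DAC it was 0.00 with no filter and 0.22 with a filter at 5 (0.08). For DAC in KO it was -0.49 with a pseudocount of 0.1 and -0.50 with limma-voom (-0.43). For DAC in WT it was 0.13 with no filter, 0.28 with a filter at 5 and 0.25 with median scaling (0.21). For the DAC interaction it was -0.56 with no filter and -0.82 with a filter at 5 (-0.63), and 24 members were called in place of 15 without WT DAC library 3 and KO DAC library 1. Without those 2 libraries 8462 genes were called for DAC in KO, 5835 for DAC in WT and 4800 for the interaction. With median scaling the enzymes' median was 0.63 and that of the HIF targets 0.18 between KO and WT in NT, 0.65 and 0.10 in H2AZ siRNA (the HIF targets' median being -0.06 as reported), and 0.08 and 0.10 for H2AZ siRNA in KO. H2AZ siRNA in WT gave 3 members with no filter in place of 6. H2AZ siRNA in KO gave 2093 genes with the compared groups alone in place of 3235. The siRNA interaction gave 0 genes with no filter, 2 with a filter at 5, 3 with median scaling, 2 with limma-voom and 0 without WT NT library 1 and KO NT library 1, in place of 1.

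With each library left out in turn, members called ranged from 8 to 23 for DAC in WT and from 2 to 7 for H2AZ siRNA in WT. Genes called ranged from 4890 to 7944 for DAC in KO, 2389 to 4943 for DAC in WT, 2276 to 4026 for the DAC interaction, 2130 to 3446 for H2AZ siRNA in KO, 1127 to 2113 for H2AZ siRNA in WT and 0 to 2 for the siRNA interaction. The median over HIF targets ranged from -0.49 to -0.43 for DAC in KO and from 0.14 to 0.24 for DAC in WT, and that over enzymes from -0.51 to -0.31 for the DAC interaction.

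Fitting the compared groups alone ended the calls of Slc2a1, Aldoa, Vegfa, Hif1a and Pfkm between KO and WT in DAC, and of Gapdh, Aldoa, Hk1, Pfkl, Pfkp, Vegfa and Kdm3a for DAC in WT. Outside the comparison of H2AZ siRNA with NT in KO, pairing by replicate number was not clear. Deviations of same-numbered libraries correlated above 0.1 in 1 of 13 pairs in the DAC table and in 6 of 18 in the siRNA table, 3 of them in that comparison. Between KO NT and WT NT the correlations were 0.023 to 0.319, with 2 of 3 above 0.1, so pairing there cannot be denied. The replicate block gave 20 members higher and 5 lower in KO in that NT comparison. With the replicate block, 12 members were higher and 3 lower in KO in DAC, ending the calls of Slc2a1, Aldoa, Vegfa, Hif1a and Pfkfb3, and 26 were higher and 3 lower in DMSO. For DAC in KO 6 rose and 12 fell, ending those of Hk2, Pkm and Eno2, and for DAC in WT 16 rose and 2 fell, ending those of Hk1, Pfkp and Vegfa. The DAC interaction had 0 positive and 15 negative, H2AZ siRNA in KO again 2 up and 4 down, and the siRNA interaction 2 genes.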

Other observations

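Other carbon pathways were counted in the same fits under decitabine, where 23.7% of all genes rose and 21.6% fell in KO, and 14.5% rose and 13.8% fell in WT. Of 8 pentose phosphate genes, which branch off after hexokinase, 6 rose and 0 fell in KO, and 2 rose and 1 fell in WT. Of 16 genes of the citric acid cycle, 6 rose and 0 fell in KO, and 3 rose and 0 fell in WT. Cs, citrate synthase, rose by 0.75 ± 0.05 log2 units in KO (limma adjusted p = 5.6e-06) and by 0.24 in WT, with an interaction of 0.51 (adjusted p = 0.001). In the NT control, 7 of the 16 cycle genes were higher and 7 lower in KO, beside 23.7% higher and 40.4% lower over all genes, with Sucla2, a subunit of succinate-CoA ligase, lower by a log2 difference of -1.18 ± 0.1 (adjusted p = 2.7e-06).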
